A study of Mus musculus with 4 samples.

Results

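The phagocyte NADPH oxidase genes *Cybb*, *Cyba*, *Ncf1* and *Ncf4*, the Rac GTPase genes *Rac1* and *Rac2* and the proton channel gene *Hvcn1* were examined in *in vitro* myeloid-derived suppressor cells (MDSCs). These 7 genes were chosen by symbol for their known role, and all 7 were found among the 24346 genes measured and passed the filter on low values. *In vitro* MDSCs were obtained by culturing bone marrow (BM) cells of female C57BL/6J mice, 6 to 8 weeks old, for 4 days with 40 ng/ml GM-CSF, the cytokine that all cultures received. RNA-seq compared 2 libraries of cells differentiated without G-CSF (Control) with 2 libraries of cells that had also received 5 ng/ml G-CSF (G-CSF). The study describes the libraries as biological replicates. The limma p-values rest on the spread between these libraries, with each gene's spread drawn toward that of genes at a similar level. The cultures are mixed populations, so these bulk values cannot tell fewer cells of a type from less RNA per cell.

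The oxidase makes superoxide from oxygen with electrons taken from NADPH, and the reactive oxygen species (ROS) derived from it are among the products by which MDSCs are known to suppress T cells. Its catalytic chain gp91phox (*Cybb*) and its partner p22phox (*Cyba*) form flavocytochrome b558 in the membrane. On activation, cytosolic subunits such as p47phox (*Ncf1*) and p40phox (*Ncf4*) join it together with a GTP-bound Rac protein, and the proton channel Hv1 (*Hvcn1*) carries out the charge that balances the electrons.

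All 7 genes had lower values in both G-CSF libraries than in both Control libraries, by small amounts. *Cyba* (the membrane partner chain), *Hvcn1* (the proton channel), *Rac2* (the haematopoietic Rac GTPase) and *Cybb* (the catalytic chain) fell at an adjusted p under 0.05 (limma, Benjamini-Hochberg adjustment over all genes tested). *Rac1*, *Ncf1* and *Ncf4* did not pass. Among the 12134 genes tested, 11.1% fell at this threshold, 12.2% rose, and 32.4% had both G-CSF values below both Control values. No member rose, and none was higher with G-CSF at an unadjusted p under 0.05 either, whereas 5 were lower, as were 18.5% of all genes tested at that unadjusted threshold (19.8% were higher). None of the 7 reached the study's additional threshold of a fold change over 2, which 0.915% of genes met on the lower and 0.511% on the higher side. The log2 fold change (G-CSF minus Control, on log2(FPKM + 0.1)) ran from -0.35 to -0.07 with a median of -0.17, against a median of 0.0008 over all genes tested.

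In the GRCm38 build, the genes are spread over the genome. *Cybb* is at chrX:9435252-9487771, *Cyba* at chr8:122424776-122432930, *Ncf1* at chr5:134220053-134229625, *Rac1* at chr5:143503634-143528036 and *Rac2* at chr15:78559167-78572783, all on the minus strand. *Ncf4* at chr15:78244801-78262580 and *Hvcn1* at chr5:122206804-122242297 are on the plus strand. *Ncf4* and *Rac2* are near neighbours, 296586 bases apart with 10 protein-coding genes between them. Among these are *Csf2rb*, which encodes a receptor chain for GM-CSF and related cytokines, and its relative *Csf2rb2*. No 75-base window of any member's longest protein-coding transcript recurred, read in the same direction, in the transcripts of another gene. Overlaps with genes on the opposite strand are not covered by this and are given below.

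For *Cyba*, *Cybb* and *Ncf1*, the RefSeq promoter sequences (GRCm38.p6) were at hand, and the 100 bases before each transcription start are shown because PU.1, an ETS factor, and Sp1 are well-known regulators of these genes. Each reads 5′ to 3′ on the gene's own, minus strand, and capitals mark matches on either strand to the ETS core GGAA, the CCAAT box CCAAT and the GC box GGGCGG. The windows are chr8:122432941-122433040 for *Cyba*, chrX:9469325-9469424 for *Cybb* and chr5:134229626-134229725 for *Ncf1*. The RefSeq start is that of 1 transcript and differs from the end of the GENCODE gene span given above by 10 bases for *Cyba*, by 0 for *Ncf1* and by 18447 bases for *Cybb*, whose window lies inside the GENCODE span.
Cyba: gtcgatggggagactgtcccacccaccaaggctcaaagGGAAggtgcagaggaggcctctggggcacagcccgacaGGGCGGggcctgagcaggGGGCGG
Cybb: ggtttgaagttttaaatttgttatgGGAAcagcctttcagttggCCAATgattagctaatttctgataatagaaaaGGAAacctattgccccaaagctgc
Ncf1: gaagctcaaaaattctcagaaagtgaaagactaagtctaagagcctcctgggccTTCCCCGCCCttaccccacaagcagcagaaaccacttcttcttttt

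The *Cyba* window is rich in G and C and holds GC boxes that begin 24 and 6 bases before the start, with a GGAA at 62. The *Cybb* window holds no GC box but a CCAAT box at 56 bases and GGAA cores at 75 and 24. In *Ncf1*, a GGAA and a GC box adjoin each other on the opposite strand, at 46 and 42 bases. Of 32851 such windows over all promoters, 66.8% hold GGAA, 18.9% CCAAT and 24.7% GGGCGG, so these matches are common. The longer PU.1-type letters GAGGAA, held by 9.82% of windows, were not in these 3 windows. The motifs were picked with the sequences in view, and a match describes letters only.

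The level of each gene is given in FPKM (fragments per kilobase of transcript, scaled to the mapped fragments), a scale per length on which genes can be compared. The libraries held about 12.4 to 15.7 M mapped reads, estimated from the steps between the lowest values, and 14674 to 14890 genes were above 0. The members stood on an estimated 1574 to 21833 reads per library, so that counting error alone was at most 2.52%. The extraction note in the labels speaks of liver tissue, but 5 of 6 hepatocyte markers, *Alb* included, were listed at 0 in all 4 libraries and the last did not exceed 0.169 FPKM, while *Itgam* (CD11b) stood at 395 to 520 FPKM.

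*Cyba* was the highest, and the order *Cyba*, *Ncf1*, *Cybb*, *Rac2*, *Rac1*, *Ncf4*, *Hvcn1* held in every library. The values of neighbours in this order did not overlap within either group. The narrowest step was from *Rac2* to *Rac1*, 1.11 times in Control and 1.08 times with G-CSF. The widest was from *Cyba* to *Ncf1* in Control (2.82 times) and from *Ncf4* to *Hvcn1* with G-CSF (2.90 times). *Cyba* ranked 87th and 82nd among all genes in Control against 121st and 111th with G-CSF. Summed over the 7 genes, the level was 2495 and 2454 FPKM in Control against 2091 and 2176 FPKM with G-CSF, or 0.372% and 0.383% against 0.326% and 0.338% of all FPKM.

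**Figure D1:**
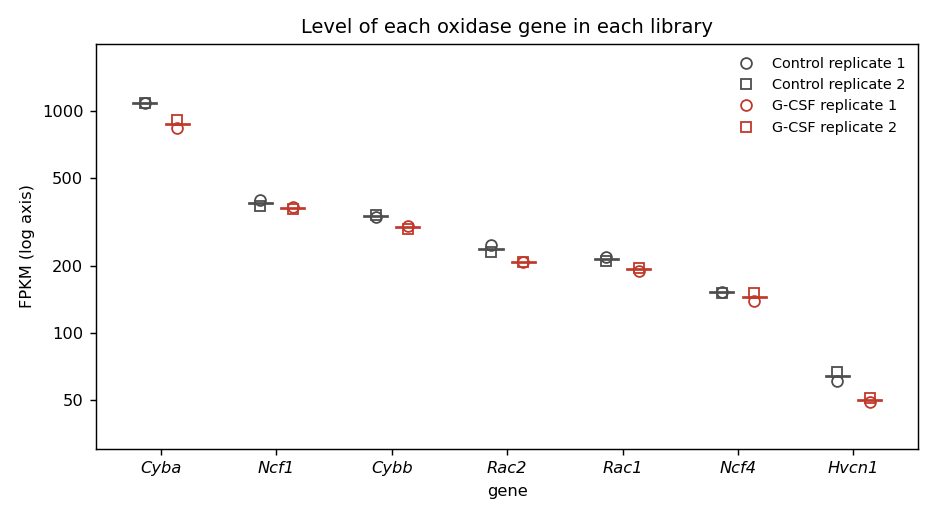
FPKM (log axis) of the 7 genes in each of the 4 libraries, Control in grey and G-CSF in red, with circles for replicate 1, squares for replicate 2 and bars for the group mean. For each gene both red points lie below both grey points, and the gap is small beside the distance from *Cyba* (1085 FPKM on average in Control) to *Hvcn1* (63.5 FPKM).

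Of the membrane chains, *Cyba* stood at 1085.31 and 1085.28 FPKM in Control and at 833 and 913 FPKM with G-CSF. Both G-CSF libraries were clearly lower, and the spread lay nearly wholly between them. The mean fell by 19.5%, from 1085 ± 0.0212 to 873 ± 57.0 FPKM (SD, n = 2 in each group here and below), with a log2 fold change of -0.32 (SE 0.06, limma adjusted p = 0.0155). Without G-CSF replicate 1, the lower of the pair, the change was -0.25 and the call was lost (limma adjusted p = 0.0671, range over all alternatives 0.00295 to 0.0812).

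*Cybb* was measured at 333 and 340 FPKM in Control and at 304 and 295 FPKM with G-CSF. The groups did not overlap, and the mean fell by 11.0%, from 337 ± 4.46 to 299 ± 6.73 FPKM, with a log2 fold change of -0.17 (SE 0.04, limma adjusted p = 0.0358). This is a small change on the deepest reads of the set, at least 17168 estimated reads per library. The call was lost whichever library was left out, with changes of -0.19 to -0.15, and fewer of all genes tested passed in those fits too. Under the other alternatives the limma adjusted p was 0.0177 to 0.138.

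Of the cytosolic subunits, *Ncf1*, which carries the phosphorylation sites that trigger assembly, stood at 397 and 371 FPKM in Control and at 367 and 361 FPKM with G-CSF. The G-CSF libraries were lower, but the nearest pair of libraries across the groups was closer than the Control libraries were to each other. The log2 fold change of -0.08 had a 95% interval from -0.20 to 0.04 and did not pass (limma adjusted p = 0.296). Exons of *Gtf2ird2* on the opposite strand cover 12.5% of the exonic bases of *Ncf1*, with *Gtf2ird2* at no more than 5.42 FPKM.

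*Ncf4*, whose product binds the phosphoinositide of phagosome membranes, stood at 153 and 151.2 FPKM in Control and at 138 and 151.0 FPKM with G-CSF. G-CSF replicate 2 was within 1 FPKM of a Control library, and the lower mean rested on replicate 1. The log2 fold change of -0.07 had a 95% interval from -0.20 to 0.05 (limma adjusted p = 0.348), and without G-CSF replicate 1 it was -0.01.

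Of the GTPases, *Rac2* stood at 247 and 230 FPKM in Control and at 209.1 and 208.9 FPKM with G-CSF. The G-CSF libraries were nearly identical and lay below both Control libraries. The mean fell by 12.4%, from 239 ± 12.2 to 209 ± 0.111 FPKM (log2 fold change -0.19, SE 0.05, limma adjusted p = 0.037). The call was lost without Control replicate 1 (log2 fold change -0.14, limma adjusted p = 0.163) and without either G-CSF library (-0.19 in both, limma adjusted p = 0.11 and 0.104), against a range of 0.0131 to 0.163 over all alternatives.

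*Rac1*, the Rac GTPase that nearly all cells use, stood at 218 and 210 FPKM in Control and at 190 and 197 FPKM with G-CSF. The groups did not overlap. The log2 fold change of -0.15 (95% interval -0.25 to -0.04) missed the threshold (limma adjusted p = 0.0595), and passed it with upper-quartile scaling (-0.17, limma adjusted p = 0.0438) and with the replicate number in the model (-0.15, limma adjusted p = 0.0356), in a range of 0.0356 to 0.237. On the strand opposite to *Rac1*, exons of *Daglb* cover 55.5% of its exonic bases, with *Daglb* at no more than 8.78 FPKM.

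*Hvcn1* had the lowest level and the largest change of the set. It stood at 60.3 and 66.7 FPKM in Control and at 48.8 and 50.9 FPKM with G-CSF, with no overlap. The mean fell by 21.5%, from 63.5 ± 4.51 to 49.9 ± 1.497 FPKM (log2 fold change -0.35, SE 0.06, limma adjusted p = 0.0133). Across the genes tested, 20.9% had a larger absolute log2 fold change.

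The exons of *Hvcn1* overlap those of *Tctn1*, a gene of the ciliary transition zone, on the opposite strand over 1574 bases (56.1% of its exonic bases). *Tctn1* stood at 42.5 and 44.7 FPKM in Control and at 34.2 and 36.7 FPKM with G-CSF, and it fell too (log2 fold change -0.30, SE 0.06, limma adjusted p = 0.0171). The kit marks the strand, but the strand setting of the counting is not given in the sources used here, and without it reads of the pair cannot be told apart.

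**Figure D2:**
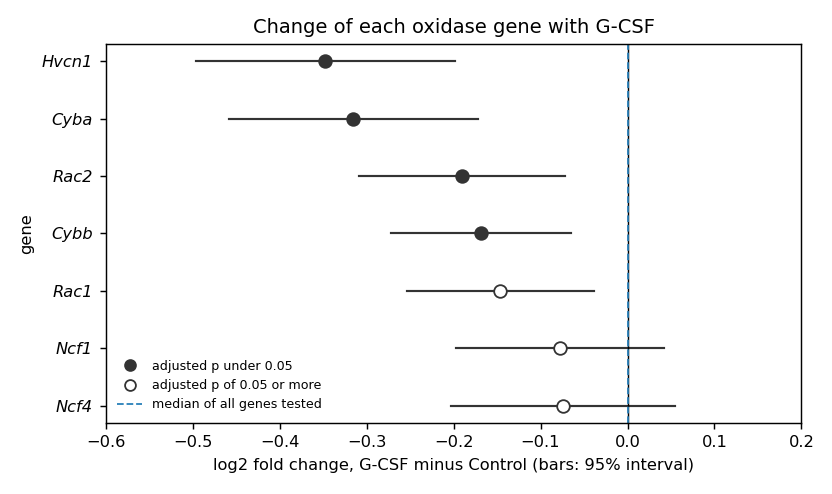
Log2 fold change (G-CSF minus Control) of the 7 genes, ordered from the largest fall, with bars for the 95% interval of the limma fit, filled points for an adjusted p under 0.05 and a dashed line for the median of all genes tested (0.0008). All points lie left of 0, and the intervals of *Ncf1* and *Ncf4* reach past it.

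The calls depended on how the spread was modelled and on the number of libraries. When the spread was not modelled as a trend of the mean level, the same fold changes passed for 0 of the 7 genes by limma and for 43 in place of 2834 of all genes tested. At an unadjusted p under 0.05 in that fit, 4 of the 7 genes and 16.8% of all genes tested were lower. With any 1 library left out, fewer members passed, and so did fewer of all genes tested. The log2 fold changes in those fits were -0.42 to -0.275 for *Hvcn1* and -0.38 to -0.25 for *Cyba*. They were -0.24 to -0.14 for *Rac2* and -0.19 to -0.15 for *Cybb*.

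Ratios within a library do not depend on scaling between libraries, so 3 pairs of partners were compared in this way. Cells differentiated without G-CSF had 0.307 and 0.313 *Cybb* per *Cyba*, and those with G-CSF 0.365 and 0.323. Both G-CSF values were higher, by 0.15 on the log2 scale, which 2 against 2 libraries cannot place below an exact two-sided permutation p of 0.333 (here p = 0.333, adjusted over the 3 ratios 1.000).

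*Ncf1* to *Ncf4* was 2.59 and 2.46 in Control against 2.65 and 2.39 with G-CSF, and the groups overlapped (log2 difference -0.0031, exact permutation p = 1.000). *Rac2* to *Rac1* was 1.13 and 1.10 in Control against 1.10 and 1.06 with G-CSF, again with overlap (log2 difference -0.04, exact permutation p = 0.667). *Rac2* thus exceeded *Rac1* in all 4 libraries. The adjusted p was 1.000 for both.

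**Figure D3:**
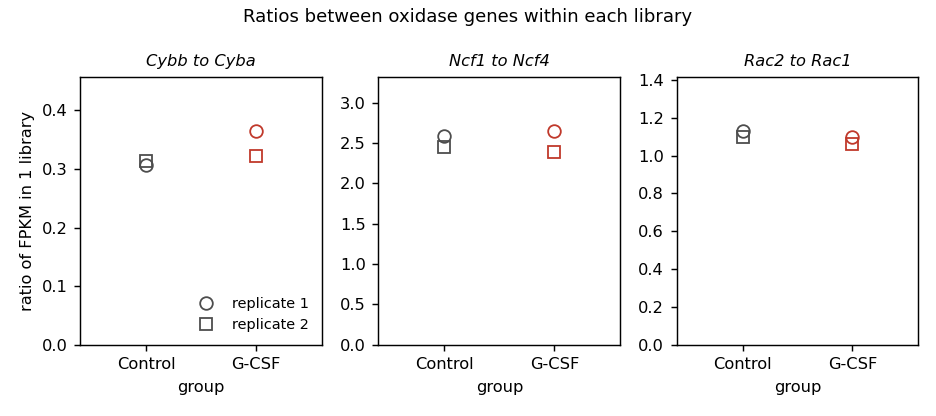
Ratio of FPKM between partner genes within each library (each axis starts at 0), for *Cybb* to *Cyba*, *Ncf1* to *Ncf4* and *Rac2* to *Rac1*, with circles for replicate 1 and squares for replicate 2. The ratios of the groups overlap for *Ncf1* to *Ncf4* and *Rac2* to *Rac1*, and for *Cybb* to *Cyba* both G-CSF values (0.365 and 0.323) lie above the Control values.

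The expression profile most like that of *Hvcn1* over the 4 libraries was that of *Mpeg1*, which encodes the pore-forming protein perforin-2 of macrophages. Likeness was the Euclidean distance between log2 profiles centred on each gene, over 6640 genes with a mean of at least 10 FPKM. A close match among so many genes over 4 values does not show a shared source. *Mpeg1*, at a distance of 0.0178, had 268 and 292 FPKM in Control against 215 and 226 FPKM with G-CSF. It was followed by *Icosl* (distance 0.0190), the ligand of the T cell costimulator ICOS, *Arl5c* (0.0304), the transcription factor gene *Klf6* (0.0363) and the syntaxin gene *Stx2* (0.0383).

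Genes that act around the enzyme were described by lists. *Nrros*, whose product limits the abundance of the catalytic chain, did not pass. It stood at 110 and 108 FPKM in Control against 94.4 and 104 FPKM with G-CSF (log2 fold change -0.14, limma adjusted p = 0.125). *BC017643* was at -0.13 (limma adjusted p = 0.164). It was listed here as the mouse gene also called *Cybc1*, which the flavocytochrome needs to reach normal abundance, but the annotation used does not pair these names.

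Of 9 Rac exchange factors and GDP dissociation inhibitors, 3 fell, 0 rose and 6 did not pass (median log2 fold change -0.09). Among all genes tested, 11.1% fell and 12.2% rose. *Prex1*, a Rac exchange factor of neutrophils that responds to G protein βγ and phosphoinositide, stood at 61.6 and 59.7 FPKM in Control against 50.4 and 50.8 FPKM with G-CSF (log2 fold change -0.26, limma adjusted p = 0.0124). *Tiam1* (-0.29, limma adjusted p = 0.0182) and *Dock2* (-0.19, limma adjusted p = 0.0499), which also load Rac with GTP, fell as well. *Vav2* was at -0.24 (limma adjusted p = 0.0997).

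Of 13 kinases upstream of assembly, 4 fell and 9 did not pass (median -0.07), against 11.1% of all genes tested that fell. *Prkcd*, the protein kinase C isoform δ that phosphorylates p47phox, stood at 262 and 272 FPKM in Control against 209 and 224 FPKM with G-CSF (log2 fold change -0.30, limma adjusted p = 0.0115). *Prkcb* (-0.35, limma adjusted p = 0.0154), *Pik3cg* (-0.22, limma adjusted p = 0.0295) and *Mapk3* (-0.17, limma adjusted p = 0.0369) were the others that fell.

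Of 7 other partners of the complex, 1 fell and 6 did not pass (median -0.09), against 11.1% of all genes tested that fell. The 1 that fell was *S100a9*, which with *S100a8* forms the calprotectin that carries arachidonate to the oxidase. *S100a9* stood at 31959 and 27310 FPKM in Control against 20506 and 20521 FPKM with G-CSF (log2 fold change -0.53, limma adjusted p = 0.0305). *S100a8* was at -0.36 (limma adjusted p = 0.0919), *Coro1a* at -0.13 (limma adjusted p = 0.104) and the phospholipase gene *Pla2g4a* at 0.21 (limma adjusted p = 0.0863).

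The other NADPH oxidases were at or near 0. *Nox3*, *Nox4*, *Duox1*, *Duox2*, *Duoxa1*, *Duoxa2* and *Noxa1* were listed at 0 in all 4 libraries, and *Rac3* was at 0.461 to 0.735 FPKM. *Nox1* had 1.30 and 1.44 FPKM in Control against 1.71 and 1.85 FPKM with G-CSF (log2 fold change 0.35, limma adjusted p = 0.155). *Noxo1*, its organizer, reached at most 0.473 FPKM (-0.06, limma adjusted p = 0.89).

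Of 12 genes listed for NADPH supply, 3 rose, 0 fell and 9 did not pass, against 12.2% of all genes tested that rose and 11.1% that fell. Not all of these 12 enzymes make NADPH themselves. The list as a whole had no common direction, with 6 log2 fold changes above 0 and 6 below (median -0.01). *Idh2*, the mitochondrial NADP-dependent isocitrate dehydrogenase, rose from 69.9 and 72.8 FPKM to 95.1 and 95.9 FPKM (log2 fold change 0.42, limma adjusted p = 0.00444). *G6pdx*, the first enzyme of the pentose phosphate pathway and the main cytosolic source of NADPH in phagocytes, rose from 195 and 196 FPKM to 233 and 230 FPKM (0.24, limma adjusted p = 0.0113). *Me2* rose by 0.21 (limma adjusted p = 0.0384), and *Nadk* was at -0.21 (limma adjusted p = 0.0525).

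Among genes that remove superoxide and peroxide, 18 of 19 were tested, and 2 rose, 2 fell and 14 did not pass (median -0.05). Over all genes tested, 12.2% rose and 11.1% fell. *Sod1*, the cytosolic superoxide dismutase, rose from 269 and 261 FPKM to 296 and 313 FPKM (log2 fold change 0.20, limma adjusted p = 0.0283). The mitochondrial peroxiredoxin gene *Prdx3* rose by 0.28 (limma adjusted p = 0.0149). *Prdx5* (-0.25, limma adjusted p = 0.0169) and the glutathione reductase gene *Gsr* (-0.20, limma adjusted p = 0.0277) fell.

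Of 11 transcription factors known at the oxidase genes, 10 were tested, 1 fell and 9 did not pass (median -0.05). The share of all genes tested that fell was 11.1%. *Satb1*, a chromatin organizer, was the only gene of these pathway lists with a fold change over 2 that also passed the test, falling from 3.99 and 3.24 FPKM to 1.495 and 1.428 FPKM (log2 fold change -1.24, limma adjusted p = 0.00584). *Spi1*, which encodes PU.1, stood at 361 and 372 FPKM in Control against 306 and 343 FPKM with G-CSF (-0.18, limma adjusted p = 0.0854). *Cebpa* was at 0.23 (limma adjusted p = 0.0558), and *Hoxa9*, at most 0.958 FPKM, at 1.32 (limma adjusted p = 0.0789).

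**Figure D4:**
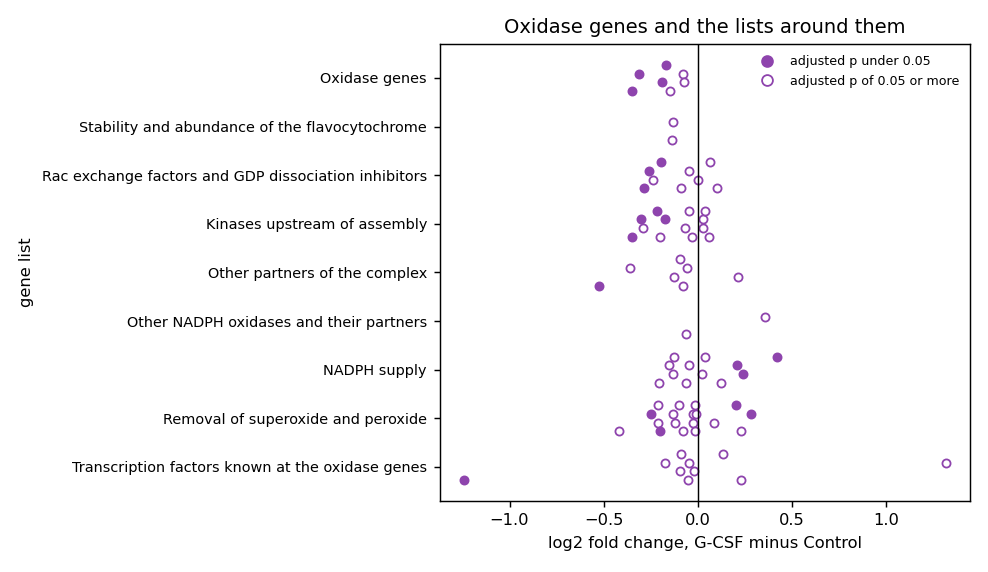
Log2 fold change (G-CSF minus Control) of each tested gene of the oxidase set (top, 7 genes) and of the lists around it, filled where the adjusted p was under 0.05. Points are spread vertically only to keep them apart. The oxidase genes all lie left of 0, the filled points of the NADPH supply list lie right of it, and *Satb1* is the filled point farthest left, at -1.24.

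Markers of several myeloid cell types were lower with G-CSF too, and their part in the oxidase values was not tested. The counts below stand against 11.1% of all genes tested that fell and 12.2% that rose. Of 8 granulocytic markers, 7 fell and 0 rose (median -0.81), among them the secondary granule genes *Camp* (-1.81, limma adjusted p = 0.000596) and *Ltf* (-1.32, limma adjusted p = 0.00352). Their summed level was 9578 and 8824 FPKM in Control against 5260 and 5613 FPKM with G-CSF. *Retnlg* (-1.81, limma adjusted p = 0.00511) and *Mmp9* (-1.08, limma adjusted p = 0.00589) also fell by a fold over 2. *Ly6g* was not analysed here. The granulocytic sum was thus at 57.2% and 61.0% of the Control mean with G-CSF, and the 7 oxidase genes at 84.5% and 87.9%. Such sums follow their most abundant genes, *Cyba* for the 7, whereas the median log2 fold changes (-0.81 and -0.17) weigh each gene alike.

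Monocytic markers moved less, with 1 of 6 higher (*F13a1*, 0.32, limma adjusted p = 0.0113) and 1 lower (*Csf1r*, -0.23, limma adjusted p = 0.019). Their sum ran from 1447 to 1499 FPKM in Control and from 1325 to 1395 FPKM with G-CSF. Dendritic markers fell in 3 of 6 cases: *H2-Ab1* (-1.09, limma adjusted p = 0.00509), *Cd74* (-0.85, limma adjusted p = 0.0065) and *Itgax* (-0.46, limma adjusted p = 0.0429). *Flt3*, *Zbtb46* and *Ccr7* were lower on average but did not pass. The dendritic sum, 2267 to 2650 FPKM in Control and 1210 to 1502 FPKM with G-CSF, is mostly *Cd74* (1878 FPKM on average in Control). Macrophage markers fell in 4 of 6 cases, from sums of 182 to 217 FPKM to 132 to 155 FPKM. None of the markers of these 4 lists was at 0.

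All 4 general myeloid markers fell, *Itgam* by 0.35 and *Cd33* by 0.61 on the log2 scale (limma adjusted p = 0.00625 and 0.00171). Mast cell and basophil markers fell in 4 of 5 cases (sums of 90.3 to 90.9 FPKM in Control and 57.7 to 62.8 FPKM with G-CSF), and eosinophil markers in 2 of 3 tested (260 to 338 FPKM and 162 to 208 FPKM). B and T cell markers fell in 2 of 4 tested, at sums of 2.27 to 4.54 FPKM over all libraries. Of these, *Cd8a*, at most 0.774 FPKM, fell by a fold over 2 (log2 fold change -1.05, limma adjusted p = 0.0275). No megakaryocyte marker passed of 3, and erythroid markers, at sums of 0.495 to 1.57 FPKM, were too low to test.

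**Figure D5:**
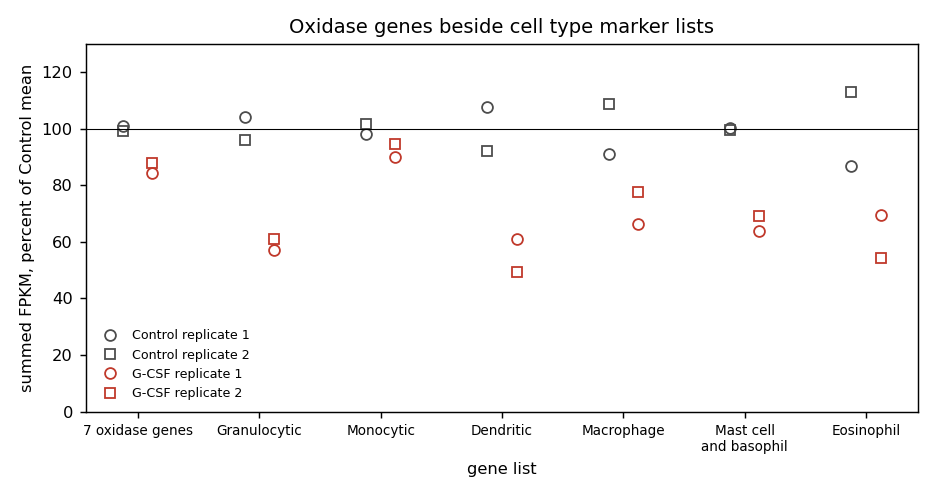
Summed FPKM of the 7 oxidase genes and of 6 marker lists in each library, as a percent of the Control mean of that list (black line at 100), with circles for replicate 1 and squares for replicate 2. The G-CSF libraries (red) stand at 84.5% and 87.9% for the oxidase genes, at 57.2% and 61.0% for the granulocytic and at 90.0% and 94.7% for the monocytic list. Each sum follows the most abundant genes of its list.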

How the data were processed

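For each of the 4 libraries the authors deposited a table of 1 value per gene, from libraries made with a stranded mRNA kit and single-end reads of 75 bases. No label names the unit. The deposited values were read as FPKM because they are not whole, scale with transcript length and have Cufflinks among the tools named in the submitters' processing notes (TopHat2 2.0.13, Bowtie2 2.2.3, SAMtools 0.1.19 and Cufflinks 2.2.1, build mm10). How replicates were normalized is not given in the sources used here. Since FPKM are already divided by length and library size, depth had to be estimated. Of 1913 low values, 66.8% were no more than 0.05 reads away from a whole read (10% by chance), with transcript lengths from GENCODE M21 shortened by 210 bases.

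The test was limma 3.58.1 in R 4.3.3 (two-sided, eBayes with a mean-variance trend) on log2(FPKM + 0.1), which understates the change of low genes, without a replicate block. It was fitted to 12134 genes: those that reached 10 estimated reads in at least 2 libraries and a sum of 15 over all 4, and, of 371 genes without a length, the 73 with a mean of at least 0.5 FPKM. Left out were 1337 genes whose transcripts have 300 bases or fewer. P-values were adjusted over all genes tested by the Benjamini-Hochberg method, and a gene passed at an adjusted p under 0.05. Ratios of 2 genes were tested by exact permutation over libraries. Of these steps, only the limma test was tried on simulated data, with far fewer changed genes than passed here.

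The members, lists, motifs and tests were chosen with earlier results of these data known. Named are all 7 members, and from each pathway list up to 4 tested genes with the smallest p and every gene that also passed a fold of 2. Of the marker lists, every gene that passed the test with a fold over 2 is named, with some others. Other marker genes are given as counts. Some genes are not reported here, and lists were counted without them. Alternatives were pseudocounts of 1 and 0.01 FPKM, no filter, a filter at a mean of 5 FPKM, upper-quartile and median-ratio scaling, no mean-variance trend, a replicate block, and leaving out each library in turn. Figures were drawn with matplotlib 3.10.9, and values were handled in python 3.11.15 with pandas 2.3.3, numpy 2.4.6 and scipy 1.17.1. Counting errors cover sampling only. Flow cytometry, ROS and T cell assays were not analysed here.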

Additional observations from a re-analysis of the deposited data

How the results depend on the processing

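Under 8 alternatives and 4 fits with a library left out, all 84 log2 fold changes of the 7 genes stayed negative. The call was the same in 68, lost in 14 and gained in 2. Without the filter, every gene above 0 in any library was tested, so p-values were adjusted over more genes than the 12134 of the main fit. There 2 members fell, and 882 genes rose and 744 fell. *Cybb* (-0.17, adjusted p = 0.0679) and *Rac2* (-0.19, adjusted p = 0.0769) no longer passed by limma. Without the mean-variance trend 0 members fell (4 at an unadjusted p under 0.05, against 16.8% of all genes tested), with limma adjusted p of 0.138 for *Cybb* (-0.17), 0.0812 for *Cyba* (-0.32), 0.14 for *Rac2* (-0.19) and 0.0795 for *Hvcn1* (-0.35), and 19 genes rose and 24 fell. *Rac1* passed with upper-quartile scaling (-0.17) and with the replicate block (-0.15). With a library left out, log2 fold changes ran from -0.19 to -0.15 for *Cybb*, -0.38 to -0.25 for *Cyba* and -0.24 to -0.14 for *Rac2*, and 1 to 3 members fell, 701 to 866 genes rose and 650 to 977 fell. In these fits the lone library of a group is assumed to vary like the other group.

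The labels give both groups replicate numbers 1 and 2. Deviations of same-numbered libraries correlated at r = 0.319 over 10845 genes, but with 2 pairs this does not show that the numbers pair the libraries. With the replicate block 5 members fell, 2006 genes rose and 1927 fell, and it changed the call of no member but *Rac1*. The cause of these shifts was not tested. At 12.4 to 15.7 M estimated reads, counting error of the members was at most 2.52%.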
